A study of Mus musculus with 6 samples.

Results

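The TNF receptors and the genes of the apoptosis and necroptosis machinery that they engage were examined in sorted Paneth cells, secretory cells of the small intestinal crypt base that release antimicrobial peptides. The 10 genes were taken by symbol, with earlier results of these data known but no measured value in the rule, and comprise the receptors Tnfrsf1a and Tnfrsf1b, the adaptors Tradd, Traf2 and Fadd, the kinases Ripk1 and Ripk3, the initiator caspase Casp8, its regulator Cflar and the necroptosis effector Mlkl. All 10 were among the 55414 genes of the count table, and all 10 passed the filter on low counts. The cells came from wild-type mice, C57BL/6J in the study's methods, that ate standard chow (3 libraries) or zinc depleted chow (3 libraries) over 7 weeks. TNF was given to every mouse of either group 3 hours before sampling, and the age of the animals is not stated in the sources used. The design text speaks of 4 replicates a group, of which 3 a group were analysed here. Libraries without TNF were not analysed here, so the data compare diets after TNF and do not measure the response to it. In such bulk libraries, fewer cells of a type and less RNA per cell cannot be told apart.

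TNF binds a pair of receptors. TNFR1, encoded by Tnfrsf1a, carries an intracellular death domain and is found on most cell types, whereas TNFR2, encoded by Tnfrsf1b, has no death domain, recruits TRAF2 and is best known from immune cells. At TNFR1, the adaptor TRADD and the kinase RIPK1 assemble a first complex that feeds NF-kB and MAP kinase signalling. When that complex is not held in check, RIPK1 and FADD bind caspase-8 and apoptosis starts, which FLIP, the product of Cflar, restrains by pairing with caspase-8. When caspase-8 is inactive, RIPK1 binds RIPK3, RIPK3 phosphorylates MLKL, and MLKL breaks the plasma membrane in a lytic death called necroptosis.

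RIPK1 and RIPK3 bind each other through a short stretch, the RHIM, which ZBP1 and TRIF (gene Ticam1) also carry. The coding sequences of this stretch are printed because it physically joins the kinases whose levels are compared below. Each was read from GRCm39 with the canonical transcript of GENCODE M39, is 60 bases long, lies in 1 exon and is given 5′ to 3′ on the coding strand, with the 4 codons of the RHIM core in capitals.
Ripk1, chr13:34214037-34214096, plus strand, codons 528 to 531 of 656: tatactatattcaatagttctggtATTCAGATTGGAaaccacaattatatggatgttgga
Ripk3, chr14:56022738-56022797, minus strand, codons 448 to 451 of 486: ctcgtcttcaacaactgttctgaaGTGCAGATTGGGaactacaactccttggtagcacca
Zbp1, first copy, chr2:173053911-173053970, minus strand, codons 192 to 195 of 411: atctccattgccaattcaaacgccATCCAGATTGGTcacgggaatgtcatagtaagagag
Zbp1, second copy, chr2:173052378-173052437, minus strand, codons 248 to 251 of 411: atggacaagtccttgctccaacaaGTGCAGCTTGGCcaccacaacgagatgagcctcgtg
Ticam1, chr17:56576997-56577056, minus strand, codons 688 to 691 of 732: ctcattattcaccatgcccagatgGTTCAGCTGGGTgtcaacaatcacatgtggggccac

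The libraries held 6139397 to 12772373 counts, and the factors of the TMM normalization, which scales libraries on the bulk of their genes, ran from 0.459 to 1.73. The 9 Paneth markers were all counted and summed to 422485 to 567233 CPM (the count of a gene scaled by its library's total). After TMM scaling their sums were less even, at 245274, 306125 and 560033 CPM on standard chow and 325203, 888531 and 1.23e+06 CPM on zinc depleted chow. Immune and stromal markers were near 0: the 9 T cell and innate lymphoid markers summed to at most 1.41 CPM, with Cd3e and Trac at 0 throughout, the 5 pan-leukocyte markers to 1.10 to 7.33 CPM, and 4 of 5 endothelial markers were at 0. The 10 myeloid markers summed to 43.8 to 107 CPM. This list includes Lyz2, a close relative of the Paneth gene Lyz1, and the share of each marker in the sum is not given here. Other epithelial markers were uneven, and the 6 goblet markers were highest in zinc depleted replicate 1, at 6352 CPM against 1492 to 2903 CPM in the other libraries. After TMM scaling the goblet sums were 1637, 1933 and 1665 CPM on standard chow and 4367, 2704 and 4013 CPM on zinc depleted chow, so that zinc depleted replicate 3 came close to replicate 1. The diets did not overlap on that scale, with zinc depletion higher, whereas in plain CPM they overlapped. The 5 tuft markers reached 144, 667 and 21.7 CPM on standard chow and 176, 57.6 and 25.1 CPM on zinc depleted chow. Standard diet replicates 1 and 2 were lower than the other 4 libraries in Tnf, Tnfaip3 and Birc3, genes that TNF is known to induce. Tnfaip3 and Birc3 were picked after their values were seen. Jun in standard diet replicate 1 (21.0 TMM-normalised CPM) and Cflar in standard diet replicate 2 (6.94) lay within the range of the other 4 libraries. The labels give all mice the same TNF treatment, and values without single libraries are given below. Standard diet replicates 1 and 2 also had the highest share of the ribosomal RNA gene annotated as Rn18s-rs5. This gene took 2.56, 2.91 and 1.27% of counts on standard chow and 0.522, 0.884 and 0.883% on zinc depleted chow. The part of RNA composition in the results was not tested. Mitochondrial genes took 0.332% to 0.754% and alpha-defensin genes 45.5% to 60.5% of counts.

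Which genes of the pathway the cells expressed was asked first. Levels of different genes were compared as counts per kilobase of the canonical transcript, brought to the same sum in each library and called the per-length level here. By this measure Tnfrsf1a was the highest of the 10 genes and Casp8 the next in 6 of 6 libraries, and Mlkl was the lowest in 6 of 6. The margin of Mlkl was small in zinc depleted replicate 3, at 0.139 against 0.145 for Traf2. Without the division by length neither order held in every library, as given below. Of the summed per-length level of the 10 genes, Tnfrsf1a took 35.7% to 52.5%, Casp8 17.0% to 28.6%, Ripk3 4.75% to 11.2% and Mlkl 0.494% to 1.72%, depending on the library.

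**Figure D1:**
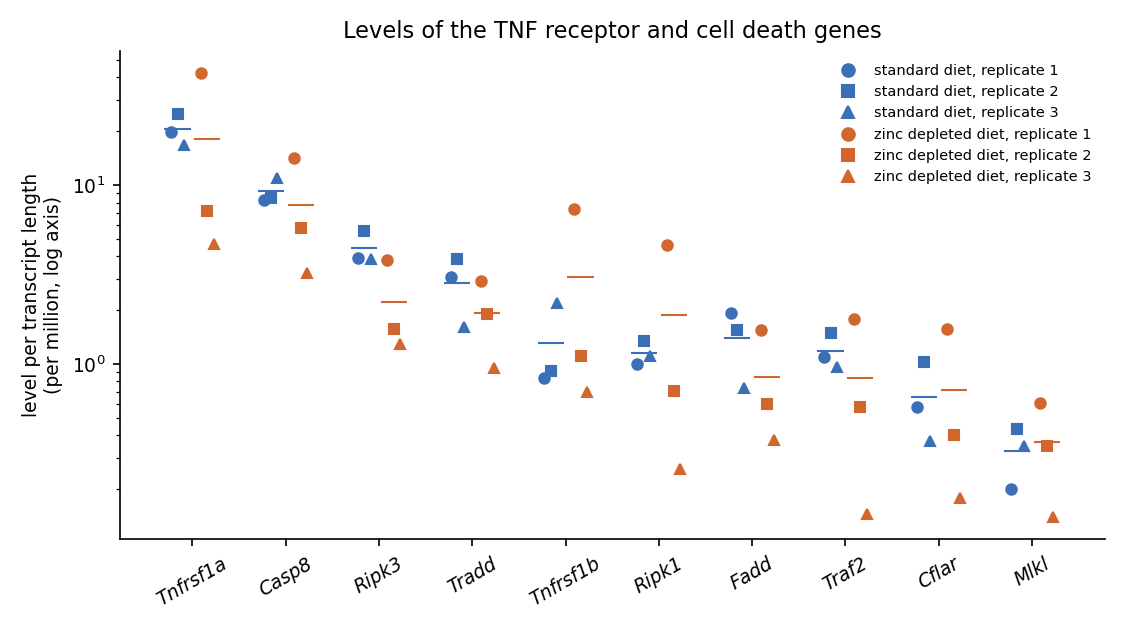
Per-length level (log axis) of the 10 genes, ordered by their mean over 6 libraries. Points are libraries, colours give the diet, shapes the replicate number and short lines the group means, and for each of the 10 genes the lowest point is zinc depleted replicate 3.

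Tnfrsf1a (ENSMUSG00000030341, chromosome 6, 125325566 to 125339632, plus strand), the death domain receptor gene, had counts of 463, 487 and 603 on standard chow and 1345, 195 and 228 on zinc depleted chow. Its per-length level was 20.6 ± 4.19 (SD, n = 3) for standard chow and 18.1 ± 21.1 (SD, n = 3) for zinc depleted chow, and it ranked 539 of 9740 genes by mean level. Zinc depleted replicate 1 was the highest library and zinc depleted replicate 3 the lowest, so the diets overlapped. Tnfrsf1b (ENSMUSG00000028599, chromosome 4, 144938938 to 144973477, minus strand), the receptor gene without a death domain, had counts of 44, 40 and 178 on standard chow and 527, 68 and 77 on zinc depleted chow. Its mean per-length level was 2.19 over the 6 libraries, against 19.4 for Tnfrsf1a, and it lay below Tnfrsf1a in each of them.

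Tradd (ENSMUSG00000031887, chromosome 8, 105984883 to 105996354, minus strand), which links TNFR1 to RIPK1, had counts of 57, 60 and 46 on standard chow and 74, 41 and 37 on zinc depleted chow and a mean per-length level of 2.39. Fadd (ENSMUSG00000031077, chromosome 7, 144131055 to 144136211, minus strand), which brings caspase-8 to the complex, had counts of 81, 54 and 47 on standard chow and 89, 29 and 33 on zinc depleted chow and a mean per-length level of 1.12. Traf2 (ENSMUSG00000026942, chromosome 2, 25406097 to 25436987, minus strand), which carries ubiquitin ligases into the first complex, had counts of 36, 41 and 49 on standard chow and 80, 22 and 10 on zinc depleted chow and a mean per-length level of 1.01. The adaptors were thus detected in every library, and in every library each lay below Tnfrsf1a and Casp8.

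Casp8 (ENSMUSG00000026029, chromosome 1, 58834375 to 58886665, plus strand), the initiator caspase of death receptor apoptosis, had counts of 243, 207 and 495 on standard chow and 566, 197 and 198 on zinc depleted chow. Its per-length level was 9.25 ± 1.51 (SD, n = 3) for standard chow and 7.72 ± 5.72 (SD, n = 3) for zinc depleted chow, and it ranked 1244 of 9740 genes. Zinc depleted libraries were both the highest and the lowest. Cflar (ENSMUSG00000026031, chromosome 1, 58750321 to 58798047, plus strand), the gene of the brake on caspase-8, had counts of 43, 64 and 43 on standard chow and 160, 35 and 28 on zinc depleted chow and a mean per-length level of 0.685. Its per-length level was 0.0339 to 0.121 times that of Casp8 within a library, and its plain count 0.0869 to 0.309 times. The canonical transcript of Cflar is 7017 bases long, the longest of the 10, which lowers its per-length level.

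Ripk1 (ENSMUSG00000021408, chromosome 13, 34186141 to 34221130, plus strand), the kinase that serves both forms of death, had counts of 72, 81 and 123 on standard chow and 457, 59 and 39 on zinc depleted chow and a mean per-length level of 1.51. Zinc depleted replicate 1 stood alone above the rest. Ripk3 (ENSMUSG00000022221, chromosome 14, 56022452 to 56026324, minus strand), the kinase of necroptosis, had counts of 79, 94 and 120 on standard chow and 106, 37 and 55 on zinc depleted chow and a mean per-length level of 3.34. On this scale, which rests on total counts, its highest zinc depleted library (3.84) lay just under its lowest standard diet library (3.85), whereas after TMM scaling the diets overlapped. The share of all genes that separate on this scale was not computed. With total counts only, 1273 of 9749 tested genes had a positive log2 fold change of zinc depleted over standard diet, with a median of -0.67. Mlkl (ENSMUSG00000012519, chromosome 8, 112036296 to 112065168, minus strand), the membrane-breaking effector, had counts of 9, 16 and 24 on standard chow and 37, 18 and 13 on zinc depleted chow, a mean per-length level of 0.346 and rank 8703 of 9740. Mlkl was detected in each library, and its lowest count, 9 in standard diet replicate 1, has an exact Poisson 95% interval of 4.12 to 17.1 counts, which covers counting error only.

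In the order of mean per-length level (Tnfrsf1a, Casp8, Ripk3, Tradd, Tnfrsf1b, Ripk1, Fadd, Traf2, Cflar, Mlkl), the ranges of each pair of neighbours over the 6 libraries overlapped. Within libraries the ends of the order were firmer than its middle. Tnfrsf1a exceeded Casp8, Casp8 exceeded Ripk3 and Cflar exceeded Mlkl in 6 of 6 libraries, Ripk3 exceeded Tradd and Traf2 exceeded Cflar in 5 of 6, and Ripk1 exceeded Fadd in 3 of 6. Tnfrsf1b moved most, from place 3 to place 9. By mean CPM over the 6 libraries, with no length, Tnfrsf1a and Casp8 kept the top places and Mlkl the last, and Tnfrsf1b took place 3. Single libraries departed from this. In zinc depleted replicate 2 Casp8 (26.5 CPM) lay just above Tnfrsf1a (26.2 CPM), and in zinc depleted replicate 3 Traf2 (0.783 CPM) lay below Mlkl (1.02 CPM).

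Whether the diets differed was then read from an edgeR fit over all genes with TMM scaling. No gene of the 10 had an edgeR adjusted p under 0.05, and over all 9749 tested genes the share was 0%. An unadjusted p under 0.05 was found for 645 genes, 6.62% of those tested, and for 0 of the 10. DESeq2 called 6 genes and limma-voom 0, none of them among the 10. In terms of the log2 difference, the log2 fold change of zinc depleted over standard diet, 8 of the 10 had a positive TMM estimate, with a median of 0.27 beside 0.00 over all tested genes. When libraries were scaled by total counts only, 4 of the 10 were positive, with a median of -0.21 beside -0.67, so signs near 0 depended on the scaling. The groups of TMM-normalised CPM overlapped for all 10 genes. Over all tested genes they did not overlap for 3.51%, with zinc depletion higher, and for 6.58%, with zinc depletion lower.

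**Figure D2:**
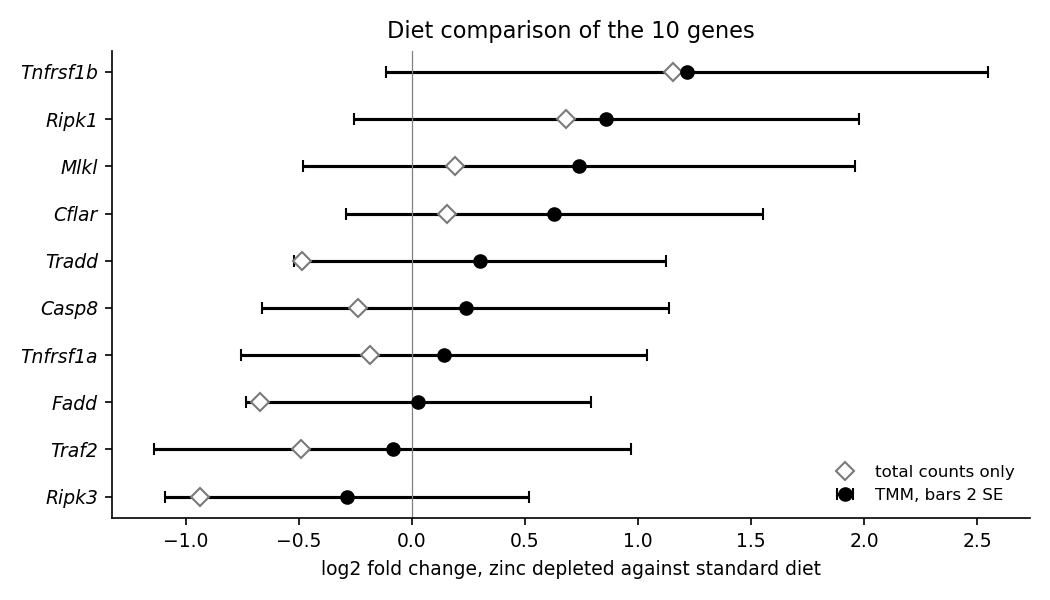
Log2 fold change of the 10 genes, zinc depleted against standard diet. Black points with bars give the TMM estimate and 2 SE to either side (edgeR, 3 libraries a group), and open diamonds the estimate with total counts only. Every bar crosses 0, and Tnfrsf1b and Ripk1 have the highest estimates in both scalings.

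Of the receptors, Tnfrsf1b had TMM-normalised CPM of 3.48, 4.34 and 19.9 on standard chow and 36.3, 14.3 and 13.1 on zinc depleted chow. Standard diet replicates 1 and 2 were the lowest libraries, and standard diet replicate 3 lay among the zinc depleted ones. The log2 difference of 1.22 (SE 0.67, edgeR adjusted p = 0.681) was the highest of the 10. It became 2.50 without standard diet replicate 3 and 0.59 without zinc depleted replicate 1, and its adjusted p was at least 0.109 in all alternatives run. Tnfrsf1a had TMM-normalised CPM of 36.6, 52.8 and 67.4 on standard chow and 92.5, 41.1 and 38.9 on zinc depleted chow, with the zinc depleted libraries on both sides of the middle standard diet library. Its log2 difference was 0.14 (SE 0.45, edgeR adjusted p = 0.929), and it turned to -0.18 with total counts only and to -0.37 without zinc depleted replicate 1.

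Of the adaptors, Fadd kept to 5.26 to 6.41 TMM-normalised CPM in the 6 libraries, a narrow range, with a log2 difference of 0.028 (SE 0.38, edgeR adjusted p = 0.987). Tradd ran over 4.51 to 8.64 TMM-normalised CPM, with a log2 difference of 0.30 (SE 0.41, edgeR adjusted p = 0.829). Traf2 ran over 1.71 to 5.50 TMM-normalised CPM, lowest in zinc depleted replicate 3 on 10 counts, with a log2 difference of -0.086 (SE 0.53, edgeR adjusted p = 0.965). With 1 library left out, Tradd ran from 0.12 (zinc depleted replicate 2 omitted) to 0.48 (zinc depleted replicate 1 omitted). Total counts only put these estimates at -0.67, -0.49 and -0.49 for Fadd, Tradd and Traf2.

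Of the kinases, Ripk1 had TMM-normalised CPM of 5.70, 8.79 and 13.8 on standard chow and 31.4, 12.4 and 6.66 on zinc depleted chow. Zinc depleted replicate 1 was the single zinc depleted library above all standard diet libraries. It also had the highest goblet marker sum, 4367 TMM-normalised CPM and 6352 in plain CPM, where its Ripk1 was 45.7. Zinc depleted replicate 3 had goblet sums of 4013 TMM-normalised CPM and 1841 in plain CPM, where its Ripk1 was 3.05. The part of goblet cells was not tested. The log2 difference of Ripk1 was 0.86 (SE 0.56, edgeR adjusted p = 0.697), and 0.029 without that library, and 1.29 without standard diet replicate 3. Ripk3, at TMM-normalised CPM of 6.25, 10.2 and 13.4 on standard chow and 7.29, 7.80 and 9.39 on zinc depleted chow, had the most negative log2 difference of the 10, -0.29 (SE 0.40, edgeR adjusted p = 0.833). The diets overlapped, and the estimate was -0.94 with total counts only and 0.038 without standard diet replicate 3.

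Casp8 had TMM-normalised CPM of 19.2, 22.5 and 55.4 on standard chow and 38.9, 41.5 and 33.8 on zinc depleted chow. On that scale, as for Tnfrsf1b, standard diet replicates 1 and 2 were lowest, while standard diet replicate 3 was the highest library of all. In plain CPM Casp8 was 33.1, 33.7 and 49.6 on standard chow and 56.6, 26.5 and 15.5 on zinc depleted chow. There zinc depleted replicates 2 and 3 were lowest and zinc depleted replicate 1 highest, so this order depended on the scaling. The log2 difference of Casp8 was 0.24 (SE 0.45, edgeR adjusted p = 0.881), and 0.92 without standard diet replicate 3, but -0.031 without standard diet replicate 1 and -0.24 with total counts only. Cflar had TMM-normalised CPM of 3.40, 6.94 and 4.81 on standard chow and 11.0, 7.38 and 4.78 on zinc depleted chow, highest in zinc depleted replicate 1, and a log2 difference of 0.63 (SE 0.46, edgeR adjusted p = 0.709), 0.28 to 0.93 with 1 library left out. Mlkl had TMM-normalised CPM of 0.712, 1.74 and 2.68 on standard chow and 2.55, 3.79 and 2.22 on zinc depleted chow, and its lowest library was standard diet replicate 1. Its log2 difference was 0.74 (SE 0.61, edgeR adjusted p = 0.737), with 0.35 without standard diet replicate 1 and 1.27 without standard diet replicate 3.

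Since scaling cancels in a ratio of genes from the same library, 4 such ratios were formed. The ratio of Tnfrsf1a to Tnfrsf1b counts was 10.5, 12.2 and 3.39 on standard chow and 2.55, 2.87 and 2.96 on zinc depleted chow. The zinc depleted libraries all lay below the standard diet libraries, but standard diet replicate 3 was closer to them than to the other replicates of its own group. The log2 ratio averaged 2.91 ± 1.00 (SD, n = 3) for standard chow and 1.47 ± 0.11 (SD, n = 3) for zinc depleted chow, a difference of -1.43 (p = 0.1, exact two-sided permutation test, adjusted p over the 4 ratios 0.4). With 3 libraries against 3, this test cannot give a p below 0.1, so no ratio could pass 0.05. Per length, Tnfrsf1a exceeded Tnfrsf1b by a factor of 5.76 to 27.5, depending on the library.

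**Figure D3:**
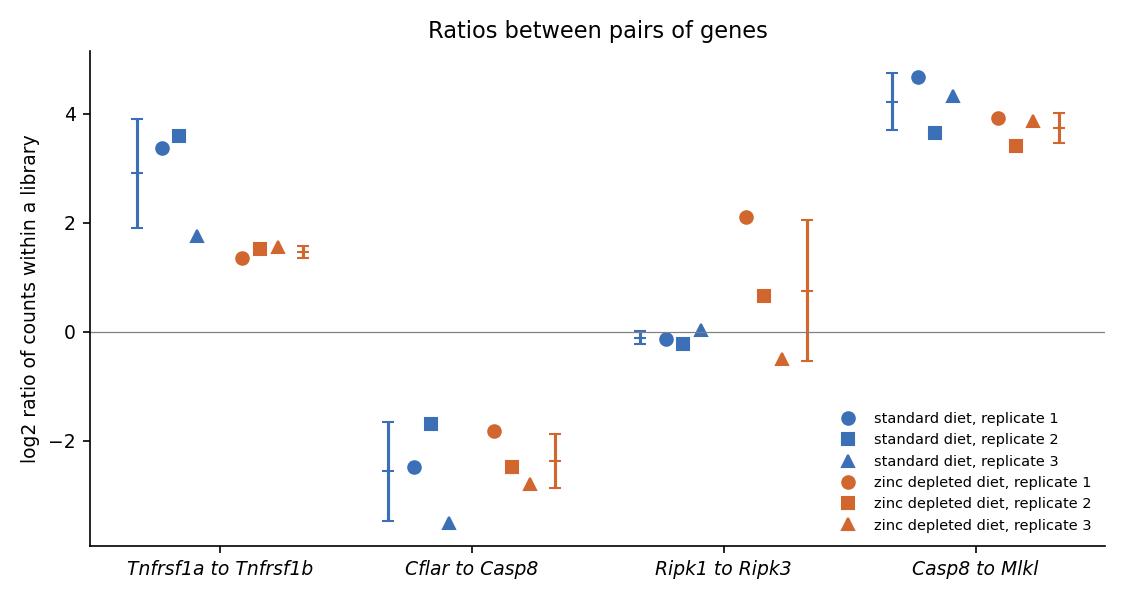
Log2 ratio of counts within each library for 4 pairs of genes, with 0.5 added to each count. Points are libraries, and bars the group mean and SD (n = 3). For Tnfrsf1a to Tnfrsf1b, standard diet replicate 3 (1.76) lies next to the zinc depleted libraries (1.35 to 1.56), and the diets overlap for the other pairs.

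The ratio of the brake to its caspase, Cflar to Casp8, averaged -2.56 ± 0.91 (SD, n = 3) for standard chow and -2.37 ± 0.50 (SD, n = 3) for zinc depleted chow on the log2 scale (p = 0.9, exact two-sided permutation test, adjusted p over the 4 ratios 0.9). Ripk1 and Ripk3 counts were near parity on standard chow, with ratios of 0.911, 0.862 and 1.02, and had ratios of 4.31, 1.59 and 0.709 on zinc depleted chow (p = 0.4, exact two-sided permutation test, adjusted p over the 4 ratios 0.533). Casp8 to Mlkl averaged 4.22 ± 0.52 (SD, n = 3) for standard chow and 3.74 ± 0.28 (SD, n = 3) for zinc depleted chow on the log2 scale (p = 0.3, exact two-sided permutation test, adjusted p over the 4 ratios 0.533). Casp8 counts were at least 10.9 times Mlkl counts in every library, and the diets overlapped in these 3 ratios.

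The receptor start sites are printed because the receptor messages differed in level and in their pattern over the libraries. The 250 bases before the start of each canonical transcript were read from GRCm39 on the strand of the gene and searched on both strands for the TATA box (TATAAA), the GC box (GGGCGG) and the kappa-B motif of NF-kB, with matches in capitals. Since other Tnfrsf1a transcripts start further upstream, its window lies inside the annotated gene.
Tnfrsf1a, chr6:125326423-125326672, plus strand: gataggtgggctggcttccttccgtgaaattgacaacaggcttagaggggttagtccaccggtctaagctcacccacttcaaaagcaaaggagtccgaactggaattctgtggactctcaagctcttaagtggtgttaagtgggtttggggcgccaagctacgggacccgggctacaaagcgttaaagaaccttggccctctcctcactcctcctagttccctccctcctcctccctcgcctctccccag
Tnfrsf1b, chr4:144973441-144973690, minus strand: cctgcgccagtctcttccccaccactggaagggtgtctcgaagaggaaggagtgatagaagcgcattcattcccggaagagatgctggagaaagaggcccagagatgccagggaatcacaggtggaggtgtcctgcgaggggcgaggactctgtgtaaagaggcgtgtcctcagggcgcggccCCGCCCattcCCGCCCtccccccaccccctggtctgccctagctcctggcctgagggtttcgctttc

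The Tnfrsf1b window held 2 GC boxes, read on the opposite strand, and the Tnfrsf1a window held none of the 3 motifs. GC boxes were in the windows of 5 of the 10 genes (Tnfrsf1b, Tradd, Fadd, Ripk1 and Cflar) and in 36.3% of the 21770 windows of protein-coding genes. None of the 10 windows held a TATA box or a kappa-B motif, against 11.9% and 7.62% of all windows. A match describes letters in a window only.

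The rest of the pathway was read from 7 lists with 95 genes, of which 77 were tested and 0 had an edgeR adjusted p under 0.05. Among the 8 ligand and shedding genes, 3 were tested, 2 had a positive estimate and the median was 0.038, against 1 and -0.38 with total counts only. Tnf itself had counts of 6, 5 and 78 on standard chow and 273, 58 and 154 on zinc depleted chow. In TMM-normalised CPM this was 0.475, 0.542 and 8.72 on standard chow and 18.8, 12.2 and 26.3 on zinc depleted chow, so that all zinc depleted libraries lay above all standard diet libraries, as for 3.51% of tested genes. In plain CPM the diets just overlapped, with standard diet replicate 3 at 7.82 and zinc depleted replicate 2 at 7.81. The log2 difference was 2.58 (SE 0.90, edgeR adjusted p = 0.681), and it ran from 2.04 (standard diet replicate 1 omitted) to 5.25 (standard diet replicate 3 omitted) with 1 library left out. It passed the threshold without the low-count filter (edgeR adjusted p = 0.000342) and without standard diet replicate 3 (edgeR adjusted p = 0.0147), where it rests on standard diet replicates 1 and 2. Adam17, the protease gene whose product sheds TNF and its receptors, had a log2 difference of 0.038 (SE 0.51, edgeR adjusted p = 0.987). Fasl, the Fas ligand gene, had 2 counts in zinc depleted replicate 2 and 0 elsewhere, where a count of 0 allows up to 3 counts or 0.235 to 0.489 CPM.

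**Figure D4:**
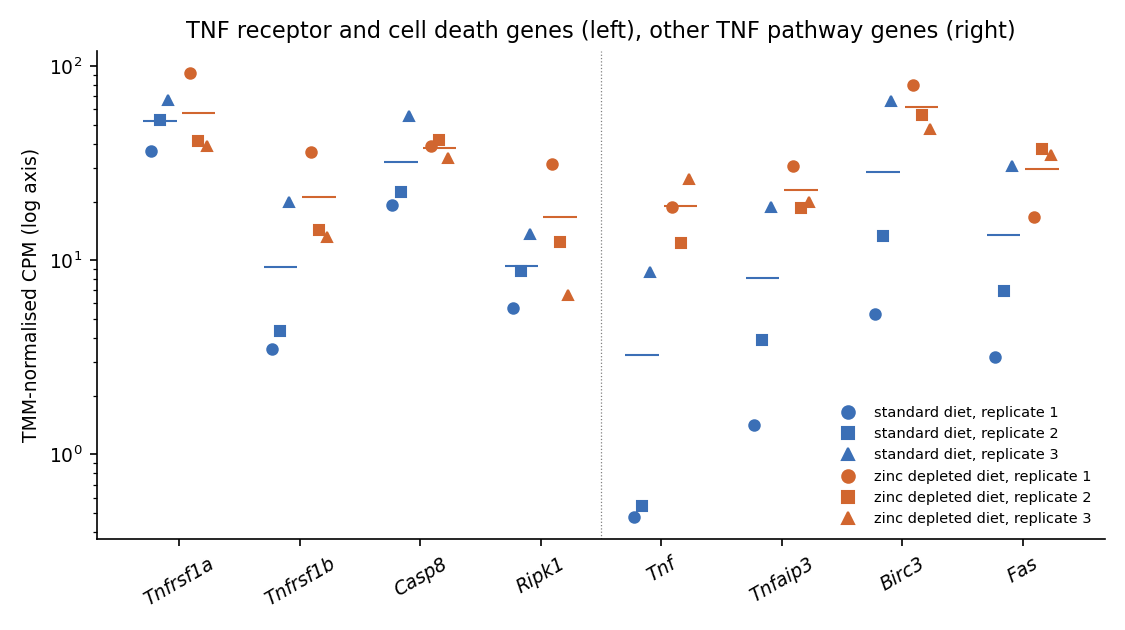
TMM-normalised CPM (log axis) by library for 4 of the 10 genes on the left and 4 other pathway genes on the right, of which Tnfaip3 and Birc3 were picked after their values were seen. Points are libraries and lines group means (n = 3). On this scale standard diet replicates 1 and 2 are the lowest libraries for Tnfrsf1b, Casp8, Tnf, Tnfaip3, Birc3 and Fas. In plain CPM this does not hold for Tnfrsf1b and Casp8.

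Of the 10 other TNF receptor superfamily genes, 6 were tested, 5 had a positive estimate and the median was 0.76, against 3 and 0.16 with total counts only. Ltbr, the lymphotoxin beta receptor gene, had the highest mean per-length level of this list, 13.2, and a log2 difference of 0.39 (SE 0.35, edgeR adjusted p = 0.756). Its TMM-normalised CPM was 30.2, 32.3 and 42.3 on standard chow and 47.1, 43.0 and 46.9 on zinc depleted chow. The diets did not overlap there, with a narrow margin and as for 3.51% of tested genes. In plain CPM they overlapped. Fas, a death receptor gene whose product recruits FADD, had TMM-normalised CPM of 3.16, 6.94 and 30.5 on standard chow and 16.6, 37.3 and 35.2 on zinc depleted chow, low in the same pair of libraries as Tnfrsf1b, and a log2 difference of 1.13 (SE 0.70, edgeR adjusted p = 0.686). Tnfrsf21, the death receptor 6 gene, had TMM-normalised CPM of 3.16, 3.91 and 15.0 on standard chow and 42.0, 16.0 and 11.3 on zinc depleted chow and a log2 difference of 1.67 (SE 0.66, edgeR adjusted p = 0.681). The diets overlapped for both. With 1 library left out, Fas ran from 0.66 (standard diet replicate 1 omitted) to 2.60 (standard diet replicate 3 omitted) and Tnfrsf21 from 0.90 (zinc depleted replicate 1 omitted) to 2.77 (standard diet replicate 3 omitted). Tnfrsf19, a receptor gene known from intestinal stem cells and named after its values were seen, had the opposite sign, -1.56 (SE 0.67, edgeR adjusted p = 0.681). Its estimate was -2.50 with total counts only, and with 1 library left out it ran from -1.93 (standard diet replicate 3 omitted) to -0.70 (standard diet replicate 1 omitted). The 5 stem cell markers summed to 2097, 913 and 1310 TMM-normalised CPM on standard chow and 391, 743 and 1165 on zinc depleted chow, where the diets overlapped. In plain CPM they summed to 3612, 1371 and 1174 and to 569, 474 and 535, without overlap and highest in standard diet replicate 1. With total counts only, the median log2 difference of all tested genes was -0.67. The part of stem cells in the Tnfrsf19 estimate was not tested.

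Of 25 ubiquitin and kinase genes of the receptor complex, 23 were tested, 15 had a positive estimate and the median was 0.17, against 8 and -0.25 with total counts only. Mapkapk2, which encodes the kinase MK2 that phosphorylates RIPK1, and Rbck1, which encodes HOIL-1 of the linear ubiquitin ligase, had the highest mean per-length levels, 8.73 and 5.43. Their log2 differences were 0.46 (SE 0.41, edgeR adjusted p = 0.750) and -0.29 (SE 0.36, edgeR adjusted p = 0.824). Tnfaip3 and Birc3, NF-kB targets whose products A20 and cIAP2 act back on the complex, were low in the same libraries as Tnfrsf1b after TMM scaling. Tnfaip3 had TMM-normalised CPM of 1.42, 3.91 and 18.9 on standard chow and 30.7, 18.6 and 20.0 on zinc depleted chow, and a log2 difference of 1.53 (SE 0.73, edgeR adjusted p = 0.681). Birc3 had TMM-normalised CPM of 5.30, 13.3 and 66.5 on standard chow and 80.6, 56.5 and 47.6 on zinc depleted chow, and a log2 difference of 1.12 (SE 0.73, edgeR adjusted p = 0.697). With 1 library left out, Tnfaip3 ran from 1.02 (standard diet replicate 1 omitted) to 3.18 (standard diet replicate 3 omitted) and Birc3 from 0.63 (standard diet replicate 1 omitted) to 2.78 (standard diet replicate 3 omitted), and the adjusted p was at least 0.0602 and 0.0766 in all alternatives run. In the JNK and p38 cascade, 9 of 9 genes were tested, 4 had a positive estimate and the median was -0.066, against 2 and -0.41 with total counts only. Its kinase gene Map2k3 and its transcription factor gene Jun had the highest mean per-length levels, 10.9 and 4.50, and log2 differences of 0.81 (SE 0.43, edgeR adjusted p = 0.681) and 0.31 (SE 0.39, edgeR adjusted p = 0.827).

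Of the caspases and apoptosome genes, 12 of 12 were tested, 8 had a positive estimate and the median was 0.26, against 4 and -0.72 with total counts only. Casp6, an executioner caspase gene, had a mean per-length level of 6.63 and a log2 difference of 0.19 (SE 0.40, edgeR adjusted p = 0.896). Htra2, which encodes a mitochondrial protease that binds inhibitors of apoptosis, had TMM-normalised CPM of 7.36, 8.14 and 14.0 on standard chow and 13.1, 27.0 and 36.9 on zinc depleted chow and a log2 difference of 1.38 (SE 0.46, edgeR adjusted p = 0.681). On that scale zinc depleted replicate 1 lay below standard diet replicate 3, so the diets overlapped. In plain CPM Htra2 was 12.7, 12.2 and 12.5 on standard chow and 19.1, 17.2 and 16.9 on zinc depleted chow, without overlap, and its log2 difference with total counts only was 0.51. The share of all tested genes without overlap in plain CPM was not computed. Casp2, an initiator caspase gene named after its values were seen, had a log2 difference of -1.52 (SE 0.61, edgeR adjusted p = 0.681), which ran from -2.55 (zinc depleted replicate 1 omitted) to -1.08 (zinc depleted replicate 3 omitted) with 1 library left out. Of 17 BCL2 family genes, 13 were tested, 7 had a positive estimate and the median was 0.014, against 2 and -0.68 with total counts only. The anti-apoptotic Mcl1 and the pro-apoptotic Bak1 led by mean per-length level, 10.6 and 8.51, with log2 differences of 0.68 (SE 0.45, edgeR adjusted p = 0.700) and -0.33 (SE 0.38, edgeR adjusted p = 0.813).

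Of 14 partners in necroptosis and in pyroptosis, a lytic death driven by gasdermins, 11 were tested, 8 had a positive estimate and the median was 0.41, against 4 and -0.19 with total counts only. Ninj1, which encodes a protein that ruptures the membrane late in lytic death, had a mean per-length level of 24.8, above that of Tnfrsf1a. Its TMM-normalised CPM was 17.1, 31.9 and 57.0 on standard chow and 57.4, 92.1 and 109 on zinc depleted chow. The diets did not overlap there, with a narrow margin and as for 3.51% of tested genes, but overlapped in plain CPM. The log2 difference of Ninj1 was 1.28 (SE 0.49, edgeR adjusted p = 0.681). Other list genes without overlap after TMM scaling included Birc2 and Mapk8, higher on zinc depleted chow. Otulin, Parp1 and Ppm1b were lower there without overlap, as were 6.58% of tested genes. Casp4, the caspase gene of the response to intracellular lipopolysaccharide, had a mean per-length level of 19.0, TMM-normalised CPM of 3.56, 16.2 and 69.7 on standard chow and 53.9, 92.1 and 64.8 on zinc depleted chow, and a log2 difference of 1.24 (SE 0.78, edgeR adjusted p = 0.694). With 1 library left out, Casp4 ran from 0.71 (standard diet replicate 1 omitted) to 2.89 (standard diet replicate 3 omitted). Zbp1 and Ticam1, the other RHIM genes printed above, had mean per-length levels of 2.57 and 1.70, between those of Ripk3 and Ripk1. Of the genes from the 7 lists whose log2 difference is given here, Adam17, Ltbr, Jun and Casp6 had positive estimates. These turned negative with total counts only, at -0.38, -0.24, -0.24 and -0.74. With 1 library left out, the estimates ran from 0.073 to 0.70 for Mapkapk2, -0.49 to -0.11 for Rbck1, 0.59 to 1.36 for Map2k3, 0.068 to 0.47 for Jun, 0.39 to 1.32 for Mcl1, -0.51 to -0.10 for Bak1 and 0.95 to 1.86 for Ninj1.

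The genes most like Tnfrsf1a over the 6 libraries, by Pearson's r of TMM log2 CPM among 6486 genes, were Bag3 (0.994), Slx9 (0.994) and Psme3 (0.985). Those most like Casp8 were Jmjd6 (0.996), Mtfr1 (0.993) and Ddit4 (0.991). Among the 10 genes, r was 0.898 for Tnfrsf1a with Ripk1 and 0.863 for Tnfrsf1b with Casp8. These values are descriptions over 6 points that share their libraries and scaling.

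Reads of neighbouring genes may enter some counts, since the sources used do not say whether strand was used. Exons of Mlkl share 672 of 5792 bases with the antisense RNA gene Gm63800, and those of Fadd share 239 and 339 of 3914 bases with the antisense RNA genes Faddos and Gm72893. Exons of Ripk1 share 241 of 10993 bases with Serpinb6a on the opposite strand and 511 with the pseudogene Gm17084 on the same strand. For Tnfrsf1a, Tnfrsf1b and Tradd the largest overlaps were 19, 184 and 61 bases.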

How the data were processed

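RNA-seq libraries of Paneth cells sorted by FACS were analysed, 3 for each diet. The authors deposited raw read counts per Ensembl gene. The submitters' processing notes name FastQC, Trimmomatic 0.39, STAR 2.7.10a, DESeq2 and the build mm39 (GRCm39). The sources used do not give the counting program, its strand setting or its treatment of reads with several matches. Symbols, positions and lengths came from GENCODE M39, where 54749 of the 55414 identifiers were found (the rest held at most 0.00479% of a library's counts).

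Diets were compared by edgeR 4.0.16 in R 4.3.3 (quasi-likelihood, TMM, filterByExpr, 9749 genes, two-sided, Benjamini-Hochberg over all of them, threshold 0.05). The fit was also run on simulated data, with larger fold changes than those estimated for the 10 genes. Its power for differences of the size seen in the 10 genes was not measured. The SE is the absolute log2 fold change over the square root of F. The study's methods describe samples of sorted cells from individual mice, which the labels do not state, and p-values measure the spread between these libraries. Ratios had 0.5 added to each count and an exact permutation test. Alternatives were DESeq2 1.42.0, limma-voom 3.58.1, other scalings, lengths and filters, a replicate block and leaving out each library. Named were the 10 genes, in each list the 2 genes of highest mean per-length level, any with an adjusted p under 0.05 (at most 3) and that of smallest unadjusted p if under 0.05, and for Tnfrsf1a and Casp8 the 3 tested genes most correlated with them at a mean log2 CPM (prior count 2) of at least 2. Tnfaip3, Birc3, Casp2, Tnfrsf19, Fasl, Zbp1, Ticam1, Birc2, Mapk8, Otulin, Parp1 and Ppm1b were named after their values were seen. A gene that the rule names is not reported here. The genes and lists were chosen with earlier results of these data known.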

Additional observations from a re-analysis of the deposited data

How the results depend on the processing

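None of the 10 genes passed an adjusted p of 0.05 under any of the 14 alternatives. Of all genes, edgeR called 0, DESeq2 6, and edgeR 76 without the low-count filter and 0 to 28 with 1 library left out (28 without standard diet replicate 3), and an unadjusted p under 0.05 was found for 645 genes, 143 to 2418 with 1 library left out and 1428 without the filter. With total counts only, the sign of the log2 fold change turned for Tnfrsf1a (-0.18), Tradd (-0.49), Fadd (-0.67), Casp8 (-0.24), Adam17 (-0.38), Ltbr (-0.24), Jun (-0.24), Casp6 (-0.74), and the median over all genes moved to -0.67. Pairing of the libraries by replicate number was not evident (correlations of deviations 0.147, -0.0584, 0.248), and not every library correlated best with its own number. With 3 libraries a group, these correlations cannot settle whether libraries were paired. With the replicate number as a block, 0 genes were called, 962 had an unadjusted p under 0.05 and Adam17 turned to -0.14, while Casp4 was 2.14 and Birc3 1.87. With 1 library left out, log2 fold changes ran from -0.37 to 0.42 for Tnfrsf1a (sign changed without standard diet replicate 1, without zinc depleted replicate 1), -0.42 to 0.31 for Traf2 (sign changed without standard diet replicate 3, without zinc depleted replicate 3), -0.54 to 0.038 for Ripk3 (sign changed without standard diet replicate 3), -0.031 to 0.92 for Casp8 (sign changed without standard diet replicate 1), -0.69 to 0.35 for Adam17 (sign changed without standard diet replicate 3, without zinc depleted replicate 1), -0.0031 to 0.48 for Casp6 (sign changed without zinc depleted replicate 3). Differences in log2 ratio ran from -2.01 to -1.09 for Tnfrsf1a to Tnfrsf1b, -0.28 to 0.63 for Cflar to Casp8, 0.19 to 1.49 for Ripk1 to Ripk3, -0.77 to -0.26 for Casp8 to Mlkl, and for Cflar to Casp8 the sign turned without standard diet replicate 3 and without zinc depleted replicate 1. The median of the mean per-length levels of the 10 genes was 1.85, 1.10 to 2.12 with 1 library left out and 8.46 CPM with no length, which is another unit. The causes of the other shifts were not tested.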
